A study of Homo sapiens with 4 samples.

Results

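The proteasome is the complex that degrades proteins tagged with ubiquitin, and the genes described here are those of its subunits, assembly chaperones and direct regulators. Members were the listed genes whose symbol begins with PSMA, PSMB, PSMC, PSMD, PSME, PSMF or PSMG followed by a digit. PSMB8, PSMB9 and PSMC3IP were left out by the same rule, which used no measured value. This gave 46 genes of the 23228 listed. They comprised 14 genes of the constitutive core (PSMA1 to PSMA7 and PSMB1 to PSMB7), 3 tissue-restricted or inducible core variants (PSMA8, PSMB10 and PSMB11), 17 of the regulatory cap, 7 assembly chaperones, 4 activators and 1 inhibitor.

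RNA was measured in A673 cells, an Ewing sarcoma cell line, harvested 48 h after lipid transfection of siRNA. The 4 groups were siSMPD1, transfected with siRNA against SMPD1 (acid sphingomyelinase), control_SMPD1, transfected with scrambled siRNA and paired with it by title, siGPR64, transfected with siRNA against GPR64 (an adhesion G protein-coupled receptor), and control_GPR64, its own scrambled control. All libraries came from the same line, grown with serum, insulin and beta-mercaptoethanol, and each group had 1 library of ribosome-depleted total RNA. No difference between groups therefore has a replicate check or a p-value of its own. Intervals given with ratios and shares are exact 95% counting intervals, which hold no variation between cultures. In bulk RNA, a lower level in each cell and fewer cells with the RNA cannot be told apart.

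The proteasome is built from a barrel-shaped core of alpha and beta rings, whose beta subunits PSMB5, PSMB6 and PSMB7 cut peptide bonds, and a cap that recognises, unfolds and feeds in ubiquitin-tagged proteins. The cap has a base, with a ring of ATPases (PSMC genes), and a lid that holds the deubiquitinase PSMD14. When proteasome activity falls short, the transcription factor NRF1 (gene NFE2L1) is known to raise the transcription of most subunit genes together. Fast-growing tumour cells depend on proteasome activity, which is a drug target in myeloma.

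Gene counts totalled 18849264 in siSMPD1 and 19614913 in control_SMPD1, against 2534861 in siGPR64 and 2882854 in control_GPR64, so values of the GPR64 pair carry wider intervals. Levels are CPM, the read count of a gene scaled to a common library size, here with TMM factors. SMPD1 stood at 91.7 CPM in siSMPD1 and 414 CPM in control_SMPD1, and GPR64 stood at 50.1 CPM in siGPR64 and 109 CPM in control_GPR64. Each target also differed in the pair that did not target it. SMPD1 had 232 CPM in siGPR64 and 52.8 CPM in control_GPR64, 4.38-fold higher (3.68 to 5.28), a larger ratio than that of GPR64 in the same pair and opposite in direction to SMPD1 in siSMPD1. GPR64 had 539 CPM in siSMPD1 and 388 CPM in control_SMPD1, 1.39-fold higher (1.35 to 1.43). The controls were thus not alike in either target. The part of these differences in the ratios below was not tested. Of 10 Ewing sarcoma markers, 9 were at 1 CPM or more in every library and CD99 was listed at 0 in all 4. The labels name muscle as the tissue, yet the muscle regulators MYOD1, MYOG and MYF5 were at 0 in all 4 libraries, and the 7 muscle markers summed to between 1.59 and 2.24 CPM. Epithelial markers, chiefly KRT8 and KRT18, summed to 147 CPM in siSMPD1 and 180 CPM in control_SMPD1, and to 169 CPM in siGPR64 and 85.3 CPM in control_GPR64. The 5 immune markers summed to 27.1 CPM in siSMPD1 and 26.8 CPM in control_SMPD1, and to 28.2 CPM in siGPR64 and 13.7 CPM in control_GPR64, with CD3E at 0 throughout. The part of these marker differences was not tested either.

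The promoters of 5 genes are printed because their ratios stand at the ends of the knockdown comparisons described below. In siSMPD1 over its control PSMD5 had the lowest ratio of all members and PSMC4 and PSMD12 the lowest of the cap, and PSMD1 and PSMD13 were the only members past 1.5-fold in siGPR64 over its control. Each is the 180 bases just upstream of the gene start in RefSeq (GRCh38.p14), read 5′ to 3′ on the gene's strand, with capitals marking a match to a searched motif. The positions are chr19:39970985-39971164 on the plus strand for PSMC4, chr9:120842923-120843102 on the minus strand for PSMD5, chr17:67366578-67366757 on the minus strand for PSMD12, chr2:231056687-231056866 on the plus strand for PSMD1 and chr11:236796-236975 on the plus strand for PSMD13.
PSMC4: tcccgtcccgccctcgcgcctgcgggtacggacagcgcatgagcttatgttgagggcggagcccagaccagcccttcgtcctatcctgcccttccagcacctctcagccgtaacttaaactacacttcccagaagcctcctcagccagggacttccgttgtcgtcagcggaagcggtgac
PSMD5: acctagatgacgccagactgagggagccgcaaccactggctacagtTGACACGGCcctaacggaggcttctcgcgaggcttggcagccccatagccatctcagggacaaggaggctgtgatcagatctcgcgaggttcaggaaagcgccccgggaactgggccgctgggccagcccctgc
PSMD12: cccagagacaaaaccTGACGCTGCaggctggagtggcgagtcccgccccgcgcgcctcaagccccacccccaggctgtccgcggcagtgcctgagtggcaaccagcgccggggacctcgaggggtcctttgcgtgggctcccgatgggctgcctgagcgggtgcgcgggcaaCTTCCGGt
PSMD1: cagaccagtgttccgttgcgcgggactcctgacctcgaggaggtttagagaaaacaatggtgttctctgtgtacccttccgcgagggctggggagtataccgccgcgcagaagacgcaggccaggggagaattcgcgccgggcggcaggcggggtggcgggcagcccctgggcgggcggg
PSMD13: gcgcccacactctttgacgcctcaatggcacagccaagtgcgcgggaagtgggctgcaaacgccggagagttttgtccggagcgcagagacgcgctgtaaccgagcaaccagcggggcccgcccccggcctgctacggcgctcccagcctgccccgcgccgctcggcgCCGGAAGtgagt
The capitals in PSMD5, and the first of the 2 runs in PSMD12, match the core of the antioxidant response element, TGACNNNGC, which NRF1 can bind. The second run in PSMD12 and the run in PSMD13 match CCGGAAG, a site for ETS-family factors. PSMC4 and PSMD1 held neither of these, nor CCAAT, in the bases shown.

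Over the 250 bases upstream, RefSeq promoters were matched for 40 of the 46 members and searched on both strands. TGACNNNGC was in 10 of 40 members (25%), against 11.5% of 15843 protein-coding genes. CCGGAAG was in 10 of 40 (25%), against 11.8%, and CCAAT, the NF-Y box, in 17 of 40 (42.5%), against 34.5%. GAANNTTC, part of a heat shock element, was in 0 of 40, against 4.81%. A match describes letters and not a bound site. The median log2 ratio in siSMPD1 over its control was -0.22 for the 10 members with TGACNNNGC and -0.14 for the 28 measured members without it, and in siGPR64 over its control 0.18 and 0.14. For CCGGAAG the medians were -0.23 with it (9 members) and -0.12 without it (29 members) in siSMPD1, and 0.01 and 0.17 in siGPR64. For CCAAT they were -0.12 with it (16 members) and -0.19 without it (22 members) in siSMPD1, the other way round, and 0.12 and 0.16 in siGPR64.

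Proteasome genes took up close to 1% of gene counts in A673 cells. Their share was 0.864% (95% interval 0.860 to 0.869) in siSMPD1 and 0.925% (0.921 to 0.929) in control_SMPD1. It was 1.04% (1.03 to 1.05) in siGPR64 and 0.948% (0.937 to 0.959) in control_GPR64. The share was thus lowest in siSMPD1 and highest in siGPR64, with the controls between them. Core and cap together held most of it, with summed levels of 3665 and 4065 CPM in siSMPD1, 3982 and 4398 CPM in control_SMPD1, 4065 and 5162 CPM in siGPR64, and 3925 and 4442 CPM in control_GPR64.

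A level of at least 1 CPM on average was reached by 44 of the 46 members in all 3 main comparisons. The exceptions were PSMA8, the testis form of an alpha subunit, with 1 count in control_SMPD1 and 0 in the other libraries, and PSMB11, the thymus form of a beta subunit, with 0 counts in all 4. PSMB10, the inducible trypsin-like subunit of the immunoproteasome, was present at 13.1 CPM in siSMPD1 and 14.8 CPM in control_SMPD1, and at 10.6 CPM in siGPR64 and 6.85 CPM in control_GPR64. Its counts of 27 in siGPR64 and 20 in control_GPR64 left a wide interval. PSMB7, the constitutive subunit that PSMB10 replaces, stood at 250.5 CPM in siSMPD1, 286 CPM in control_SMPD1, 298.5 CPM in siGPR64 and 321 CPM in control_GPR64.

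Per kilobase of the principal annotated transcript, the core had the highest levels and the assembly chaperones the lowest. The core median was 206 CPM per kb in siSMPD1, 230.4 in control_SMPD1, 218 in siGPR64 and 198 in control_GPR64. The cap median without PSMC1 was 117, 119.9, 151 and 130.03 CPM per kb in the same libraries. The chaperone median ran from 27.0 to 33.5 CPM per kb and that of the activators from 54.5 to 81.1 CPM per kb. PSMC3, an ATPase of the base, had the highest cap level in every library, at 421, 449, 583 and 459 CPM per kb. PSMA5, an alpha ring subunit, had the lowest core level in every library by this measure, between 46.5 and 65.7 CPM per kb. The transcripts taken for PSMA4 and PSMA5 are the longest of the core, at 4411 and 3729 bases. Without division by length PSMB3 was the lowest core gene in every library, at 89.9 to 107 CPM, while PSMA5 had 173 to 245 CPM. Levels per kilobase, the class medians included, thus depend on the transcript taken.

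PSMC1, another ATPase of the same ring, was listed at 34 counts in siSMPD1, 28 in control_SMPD1, 9 in siGPR64 and 6 in control_GPR64, although the ring is known to need every one of its ATPases. Of the 50-base words in its principal transcript, 28.6% also occur in annotated pseudogenes, from 12 pseudogenes in all. PSMC6 (24.7%), PSMA6 (24.6%), PSMD4 (20.8%) and PSME2 (10.8%) shared words too, at levels of 34.9 CPM or more in every library. PSMD2 shared 8.74%, and every other member less. With all other annotated genes counted, pseudogenes included, the share was 97.5% for PSMC1 and 85.6% for PSMA6. It was 51.0% for PSMA2, 48.4% for PSMA1, 46.9% for PSMD7, 38.9% for PSMB10 and 35.8% for PSMD9, and lower for every other member. Both strands were searched, and genes that overlap a member's own locus were not left out. A shared word therefore need not mean that a read aligns to several places. Over the libraries, 20.1% to 30.1% of entries were listed as aligning to several places and 0.540% to 0.715% as ambiguous. Such reads are not in the gene counts, so values of the genes named here are uncertain. How far this accounts for the low listing of PSMC1 was not tested.

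**Figure D1:**
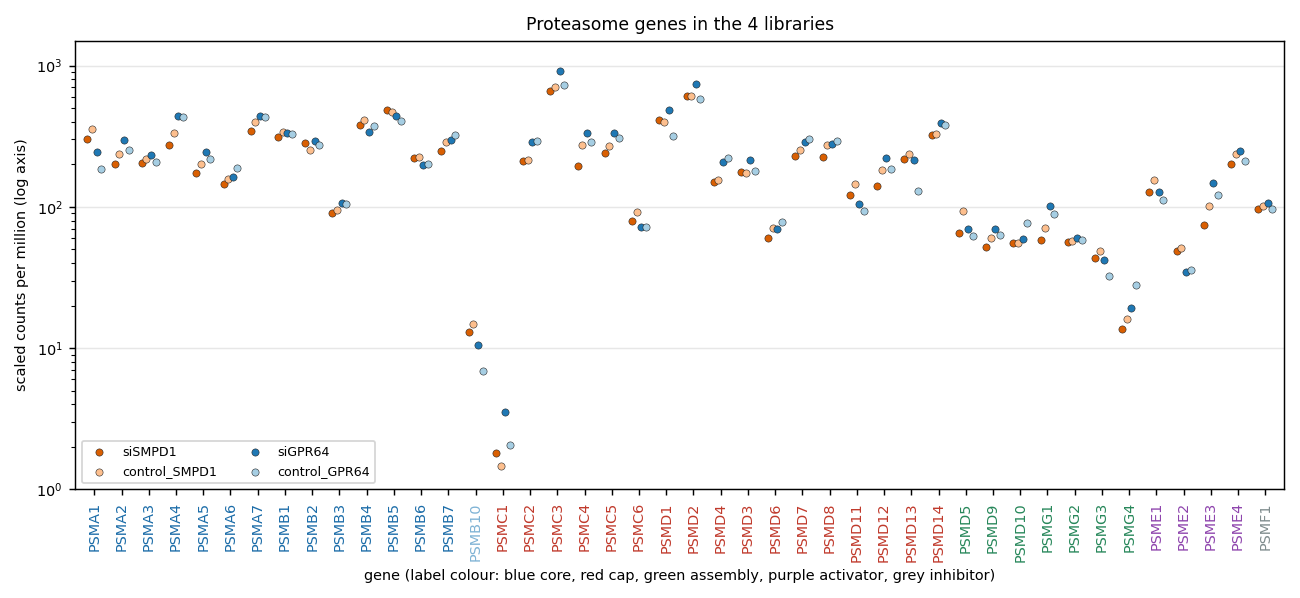
Level of each of the 44 measured members (vertical log axis, TMM-scaled CPM) in siSMPD1, control_SMPD1, siGPR64 and control_GPR64, 1 point per library, with label colours for the class. Most genes keep their place across libraries, PSMC3 stands highest at 665 to 922 CPM, and PSMC1 and PSMB10 stand lowest.

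Levels moved little across the 4 libraries. The highest level of a member was a median of 1.38 times its lowest, against 1.53 times for the 7705 genes of like level. The ratio stayed under 1.5 for 31 of 44 members (70.5%), against 46.6% of those genes, and under 2 for 41 of 44 (93.2%), against 80.0%. PSMG2, a chaperone of alpha ring assembly, was the steadiest, at 56.6 CPM in siSMPD1, 57.4 CPM in control_SMPD1, 59.9 CPM in siGPR64 and 58.2 CPM in control_GPR64. PSMB1, a beta ring subunit, was nearly as steady at 313.5, 338, 332 and 326.5 CPM. The 3 members past 2 were those with the lowest counts: PSMC1, PSMB10 and PSMG4. The lowest of the 4 values fell in siSMPD1 for 26 of 44 members and in siGPR64 for 3. The highest fell in siSMPD1 for 1 and in siGPR64 for 22.

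The first comparison asks what silencing SMPD1 did to these genes. Proteasome genes were slightly lower in siSMPD1 than in control_SMPD1, nearly throughout. The log2 ratio was below 0 for 39 of 44 members, with a median of -0.15, while the median over the 12749 measured genes was -0.00. With gene-count totals as scaling, 10 of 44 were above 0 where TMM scaling gave 5. The counting interval lay below equality for 27 of 44 members, against a background of 28.8% of genes, and above equality for 2, against 28.1%. Among genes of like level 35.6% lay below. No member was 1.5-fold lower (background 4.78%) or higher (7.26%), and none was 2-fold lower (1.11%) or higher (2.49%). The summed level of the members was 8634 CPM in siSMPD1 and 9445 CPM in control_SMPD1, a log2 ratio of -0.13 (-0.14 to -0.12).

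Within the core, the alpha ring stood lower than the beta ring. All 7 alpha genes had intervals below equality in siSMPD1, from PSMA3 at -0.09 to PSMA4 at -0.28, and their summed log2 ratio was -0.21 (-0.23 to -0.19). Alpha subunits form the outer rings and the gate of the barrel. PSMA4 had 274 CPM in siSMPD1 and 333 CPM in control_SMPD1. The beta genes summed to a log2 ratio of -0.04 (-0.06 to -0.02), with 3 intervals below equality, 1 above and 3 spanning it. PSMB2 was the beta gene above, at 281 CPM in siSMPD1 and 253 CPM in control_SMPD1. Of the catalytic subunits, PSMB5 (chymotrypsin-like) had 482 CPM in siSMPD1 and 469 CPM in control_SMPD1. PSMB6 (caspase-like) had 223.5 and 227 CPM in the same libraries. PSMB7 (trypsin-like) had 250.5 and 286 CPM, and was the only catalytic subunit whose interval lay below equality.

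Of the 17 cap genes, 10 had intervals below equality, 1 above and 6 spanning it, and the summed log2 ratio was -0.11 (-0.13 to -0.10). PSMC4, an ATPase of the base, had the lowest ratio, at 194 CPM in siSMPD1 and 276 CPM in control_SMPD1, or 1.42-fold lower (1.36 to 1.48). PSMD12, a lid subunit, followed at 142 CPM in siSMPD1 and 182 CPM in control_SMPD1, 1.29-fold lower (1.23 to 1.36). The highest cap ratio belonged to PSMC1 (0.30), whose interval spanned equality. The large scaffold subunits of the base differed little. PSMD1 had 414 CPM in siSMPD1 and 401 CPM in control_SMPD1, and PSMD2 had 611 and 612 CPM. PSMD14, the deubiquitinase of the lid, had 323 and 330.5 CPM.

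Chaperones and activators stood lower in siSMPD1 than core and cap did, with summed log2 ratios of -0.23 (-0.27 to -0.18) and -0.27 (-0.32 to -0.23). All 7 chaperones and all 4 activators were below 0, with intervals below equality for 4 and 3 of them. PSMD5, a chaperone of the base, was the lowest member of all at 64.9 CPM in siSMPD1 and 94.1 CPM in control_SMPD1, 1.45-fold lower (1.35 to 1.56). It weighed on its class, since the summed chaperone log2 ratio was -0.14 without it. PSMG1, a chaperone of the alpha ring, had 58.2 and 70.9 CPM, PSMG3 had 43.2 and 48.4 CPM, and PSMG4 had 13.7 and 16.1 CPM. PSMD9, another base chaperone, had 51.9 and 60.1 CPM, while PSMD10, the base chaperone also called gankyrin, had 55.2 and 55.4 CPM. Among activators, PSME3, which opens the core in the nucleus without ubiquitin, had 74.5 CPM in siSMPD1 and 102 CPM in control_SMPD1, 1.37-fold lower (1.28 to 1.47). PSME4, a nuclear activator linked to histone turnover, had 201 and 237 CPM. PSME1 and PSME2, the interferon-inducible activator pair, had 128 and 156 CPM, and 48.3 and 51.0 CPM. The inhibitor PSMF1 had 96.5 CPM in siSMPD1 and 102 CPM in control_SMPD1.

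The second comparison asks the same of GPR64. Proteasome genes stood on the higher side in siGPR64 against control_GPR64. Summed log2 ratios were 0.22 (0.18 to 0.25) for the cap and 0.22 (0.11 to 0.33) for the activators, with medians of 0.16 and 0.21. The log2 ratio was above 0 for 32 of 44 members, with a median of 0.14, while the median over 12830 measured genes was 0.01. The interval lay above equality for 13 members, against a background of 22.2% of genes, below it for 4, against 20.2%, and spanned it for 27. Among genes of like level 26.9% lay above and 24.9% below, so the 13 of 44 members above were near that share. PSMD1 and PSMD13 were at least 1.5-fold higher (background 13.2%) and none was 1.5-fold lower (11.3%). No member was 2-fold higher (6.56%) or lower (5.18%). Summed levels were 10323 CPM in siGPR64 and 9360 CPM in control_GPR64, a log2 ratio of 0.14 (0.12 to 0.17).

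PSMD1, the scaffold of the base, had 487 CPM in siGPR64 and 319 CPM in control_GPR64, 1.53-fold higher (1.40 to 1.66). PSMD13, a lid subunit, had 213 CPM in siGPR64 and 129 CPM in control_GPR64, 1.65-fold higher (1.44 to 1.89). Both depended on which control was used. In siGPR64 against control_SMPD1, which had 237.5 CPM of PSMD13 and 401 CPM of PSMD1, the log2 ratio was -0.16 for PSMD13 and 0.28 for PSMD1. PSMC3 had 922 CPM in siGPR64 and 724.5 CPM in control_GPR64, and PSMD2 had 738 and 578 CPM. Both were also higher in siGPR64 than in control_SMPD1, which had 709 CPM of PSMC3 and 612 CPM of PSMD2. PSMC4 had 334 and 288 CPM, PSMD12 had 220.5 and 185 CPM, and PSMD3, a lid subunit, had 216 and 180.2 CPM, with intervals above equality. The remaining cap genes had intervals that spanned equality, among them PSMD6 with the lowest ratio of the class at -0.18 and PSMC1 with the highest at 0.73.

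The core stood closer to equality than the cap between the same libraries, with a summed log2 ratio of 0.05 (0.01 to 0.09), while that of the cap was 0.22 (0.18 to 0.25). PSMA1, an alpha subunit, had the highest core ratio, at 244 CPM in siGPR64 and 184 CPM in control_GPR64, yet control_SMPD1 had 355 CPM. PSMA6 had the lowest, at 162 CPM in siGPR64 and 189 CPM in control_GPR64. PSMB5 had 437 and 404 CPM, PSMB6 had 199 and 202 CPM, and PSMB7 had 298.5 and 321 CPM, all with intervals that spanned equality. The beta genes as a group stood at -0.00 (-0.06 to 0.05). PSMB10 had a log2 ratio of 0.61 (-0.26 to 1.54), which this depth does not separate from equality.

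Chaperones did not move one way in siGPR64, and their summed log2 ratio of 0.04 (-0.08 to 0.16) spanned 0. PSMD10 had 58.8 CPM in siGPR64 and 76.4 CPM in control_GPR64, and PSMG4 had 19.2 and 28.1 CPM, both with intervals below equality. PSMG4, which pairs with PSMG3 during alpha ring assembly, thus stood opposite to PSMG3, at 42.3 CPM in siGPR64 and 32.5 CPM in control_GPR64, whose interval spanned equality. PSMG1 had 101 and 88.7 CPM, PSMD5 had 70.1 and 62.3 CPM, and PSMD9 had 69.7 and 63.4 CPM. The activators PSME3, at 148 CPM in siGPR64 and 122 CPM in control_GPR64, and PSME4, at 248 and 210.3 CPM, had intervals above equality. PSME1 had 128 and 112 CPM, PSME2 had 34.9 and 36.0 CPM, and PSMF1 had 106 and 96.3 CPM, with intervals that spanned it.

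**Figure D2:**
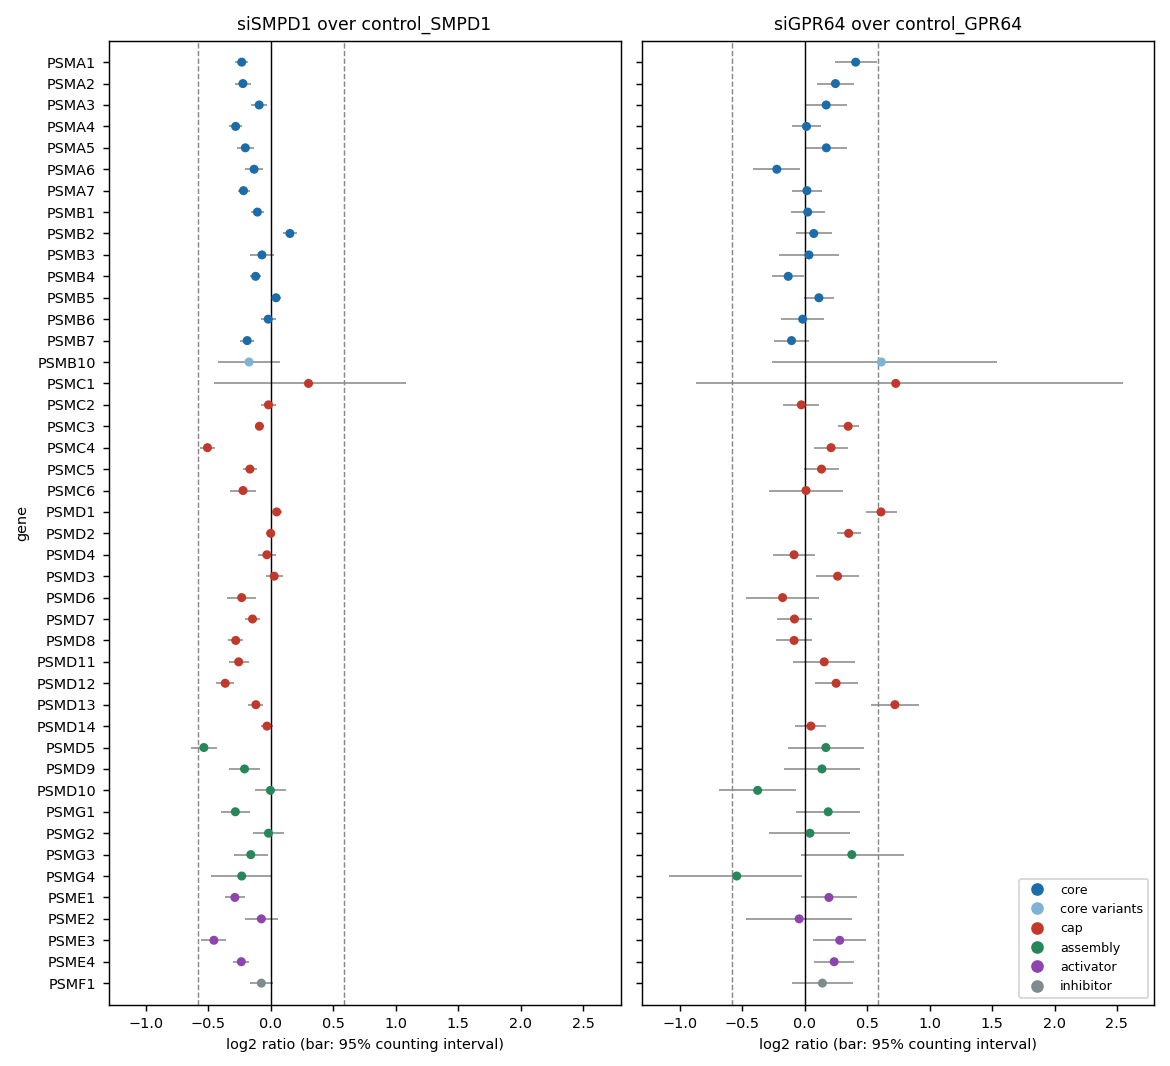
Log2 ratio of each measured member in siSMPD1 over control_SMPD1 and in siGPR64 over control_GPR64, with bars for the 95% counting interval, dashed lines at 1.5-fold and colours for the class. Points sit mostly left of 0 in the first panel (39 of 44) and right of 0 in the second (32 of 44), and bars are longer in the shallower GPR64 pair.

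The balance of cap to core can be read within each library, where scaling between libraries plays no part. Cap counts were 1.11 times core counts (1.10 to 1.12) in siSMPD1 and 1.10 times (1.09 to 1.12) in control_SMPD1. They were 1.27 times (1.24 to 1.30) in siGPR64 and 1.13 times (1.10 to 1.16) in control_GPR64. In this summed ratio siGPR64 thus stood apart from the other 3 libraries, which lay close together. The log2 ratio of these ratios was 0.17 for siGPR64 over control_GPR64, with a counting half-width of 0.05, and 0.01 for siSMPD1 over control_SMPD1, with a half-width of 0.02. Leaving out each cap gene in turn gave 0.13 (without PSMD1) to 0.19 for siGPR64. A sum follows the genes of most counts, which in the cap of siGPR64 were PSMC3 (2353 counts), PSMD2 (1883) and PSMD1 (1243), all higher than in control_GPR64. Leaving these out together was not tried. Intervals of 10 of the 17 cap genes spanned equality in that pair, so the ratio does not describe the cap gene by gene. Activators stood at 0.123 of core counts in siSMPD1 and 0.137 in control_SMPD1, and chaperones at 0.0938 and 0.101. In the GPR64 pair these ratios were 0.137 in siGPR64 and 0.122 in control_GPR64 for activators, and 0.104 in both for chaperones.

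**Figure D3:**
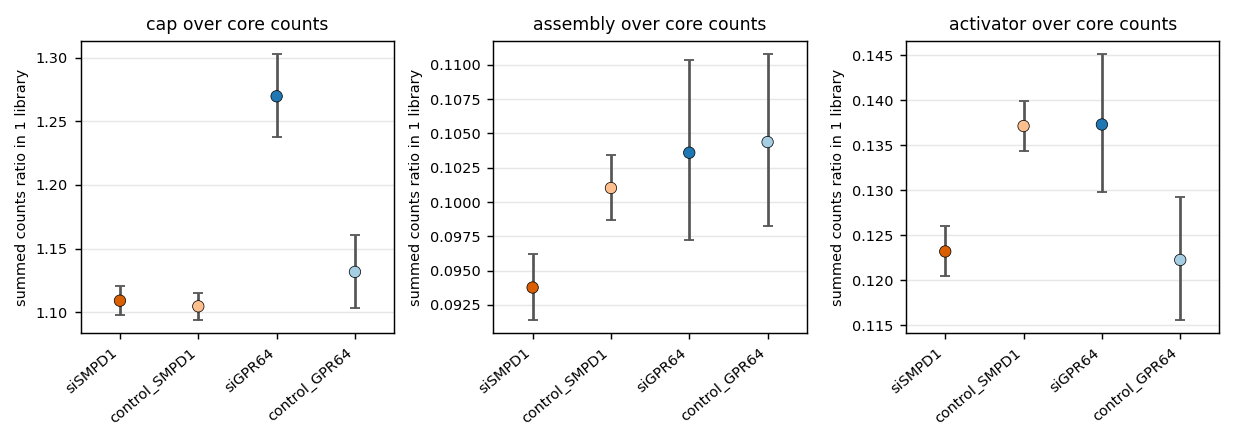
Summed counts of cap, assembly and activator genes over summed core counts in each of the 4 libraries, with 95% counting intervals, on vertical axes that do not start at 0. The cap over core ratio of siGPR64 (1.27) lies above those of the other libraries (1.10 to 1.13).

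The controls differed from each other at single members more than either knockdown did from its own control. The SD of log2 ratios over members was 0.40 between the controls, 0.16 in the siSMPD1 pair and 0.26 in the siGPR64 pair. Over genes of like level it was 0.62, 0.32 and 0.55, so this order is not particular to the members, which spread less in each comparison. In control_GPR64 against control_SMPD1 the median log2 ratio over members was 0.05, with 26 above 0 and 18 below. Intervals lay above equality for 15 members, against a background of 27.9% of genes, and below for 15, against 29.4%. PSMG4 was at least 1.5-fold higher in control_GPR64 (background 14.6%), at 28.1 CPM against 16.1 CPM in control_SMPD1. PSMA1, PSMB10, PSMD5, PSMD11 and PSMD13 were at least 1.5-fold lower (16.6%). PSMA1 had 184 CPM in control_GPR64 and 355 CPM in control_SMPD1, PSMD13 had 129 and 237.5 CPM, PSMD5 had 62.3 and 94.1 CPM, and PSMD11, a lid subunit, had 93.5 and 145 CPM. PSMD11 was lower in siSMPD1 too, at 121 CPM. Only PSMB10 was 2-fold lower (8.33%), and none was 2-fold higher (7.02%). What sets the controls apart, including their depth, cannot be told apart from the knockdown pair they belong to.

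With the controls exchanged, in ratios that share the knockdown library with those above, single genes changed sides and the list medians less so. The median log2 ratio over members was -0.15 in siSMPD1 against control_GPR64, with 28 below 0 and 16 above. Intervals lay below equality for 22 (background 29.7%) and above for 11 (30.9%). PSMA4, PSMG1, PSMG4 and PSME3 were at least 1.5-fold lower (16.4%), PSMA1, PSMB10 and PSMD13 at least 1.5-fold higher (18.7%), and of these PSMG4 was 2-fold lower (8.02%) and none 2-fold higher (10.5%). The median was 0.11 in siGPR64 against control_SMPD1, with 30 above 0 and 14 below. Intervals lay above equality for 19 (background 25.5%) and below for 10 (25.3%). PSMC1 was past 1.5-fold (12.4%) and 2-fold (6.18%) higher on its 9 counts, and no member was 1.5-fold (12.3%) or 2-fold (5.25%) lower. PSMC4 was lower in siSMPD1 against both controls, with log2 ratios of -0.51 and, against control_GPR64, -0.57. PSME3 was too, at -0.46 and -0.71. PSMD5 was not, at -0.54 and 0.06.

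The knockdown pairs share no library, and the members leaned opposite ways in them. Of 44 members, 27 were below 0 in siSMPD1 and above 0 in siGPR64, each against its own control, and 0 were the other way round. Those are 61.4% and 0% of members, against 24.1% and 22.2% of 12386 measured genes. A further 12 members were below 0 in both pairs and 5 above 0 in both. Intervals lay on those opposite sides of equality for 10 members (22.7%), against 6.75% of genes. These were PSMA1, PSMA2, PSMA3, PSMA5, PSMC3, PSMC4, PSMD12, PSMD13, PSME3 and PSME4. Genes of 1 complex are not independent of each other, so these shares describe these libraries and carry no test.

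**Figure D4:**
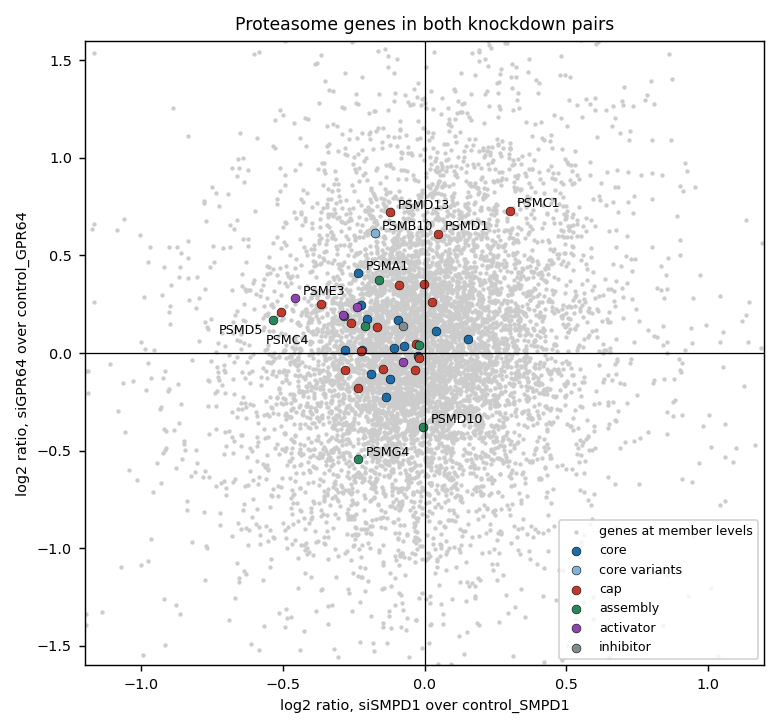
Log2 ratio in siSMPD1 over control_SMPD1 (horizontal) against that in siGPR64 over control_GPR64 (vertical) for the 44 measured members, coloured by class, over grey points for genes of like level, of which those beyond the axes are not drawn. The upper left field holds 27 members and the lower right field holds 0.

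Genes that work next to the proteasome were read from lists chosen with earlier results known. Of 14 proteasome partner genes (docked receptors, deubiquitinases and assembly factors), intervals lay below equality for 8 in siSMPD1 (28.8% of all genes) and above for 1 (28.1%), with a median log2 ratio of -0.17. In siGPR64 intervals lay above for 7 (22.2% of all genes) and below for 3 (20.2%), with a median of 0.23. ADRM1, a ubiquitin receptor of the cap, had 209 and 197 CPM in siSMPD1 and control_SMPD1, and 253.5 and 179 CPM in siGPR64 and control_GPR64. UBE3C, a ubiquitin ligase bound to the cap, had 169 CPM in siSMPD1 and 239.9 CPM in control_SMPD1. Past 1.5-fold higher in siGPR64 were 2 of the 14, near the 13.2% of all genes. These were TXNL1, a thioredoxin-like cap partner, at 168 CPM against 112 CPM in control_GPR64, and ZFAND2A, a stress-induced partner, at 21.5 against 12.3 CPM. UCHL5, a cap deubiquitinase docked by ADRM1, was past 1.5-fold lower (11.3% of all genes), at 119.5 CPM in siGPR64 and 188 CPM in control_GPR64. POMP, a chaperone of beta ring assembly, had 163.5 and 172.5 CPM in siSMPD1 and control_SMPD1, and 244 and 219 CPM in siGPR64 and control_GPR64.

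Of 17 genes for ubiquitin supply and shuttling, 8 intervals lay below equality and 3 above in siSMPD1, against 28.8% and 28.1% of all genes, and none of the genes was past 1.5-fold. In siGPR64, 7 lay above and 3 below, against 22.2% and 20.2% of all genes. NPLOC4, a cofactor of the segregase VCP, had 272 CPM in siGPR64 and 152 CPM in control_GPR64. UBQLN2, a shuttle, had 67.8 and 41.4 CPM, and DDI2, the protease that activates NRF1, had 18.8 and 11.3 CPM.

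Of 11 genes of transcription factors and processing enzymes that act on proteasome promoters, NFE2L1 had 494 CPM in siSMPD1, against 600.03 CPM in control_SMPD1, a log2 ratio of -0.28. It had 429 CPM in siGPR64 and 480.3 CPM in control_GPR64, a log2 ratio of -0.16, so its RNA was lower in both knockdowns than in their own controls. With the controls exchanged, the log2 ratio of NFE2L1 was 0.04 (-0.04 to 0.12) in siSMPD1 against control_GPR64. It was -0.49 in siGPR64 against control_SMPD1. MAFG and MAFK, small MAF partners of NRF1, were past 1.5-fold higher in siGPR64, 2 of the 11 beside 13.2% of all genes. MAFG had 183 CPM in siGPR64 and 100.03 CPM in control_GPR64, and MAFK had 38.4 and 22.9 CPM. NGLY1, the glycanase that processes NRF1, had 30.2 CPM in siGPR64 and 45.6 CPM in control_GPR64, past 1.5-fold lower beside 11.3% of all genes. The list medians were -0.11 in siSMPD1 and -0.12 in siGPR64.

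Of 8 interferon-pathway genes, which regulate PSMB10, PSME1 and PSME2 in many cells, IRF1 and MX1 were past 1.5-fold lower in siSMPD1, 2 of the 8 beside 4.78% of all genes. IRF1 had 4.19 CPM in siSMPD1 and 6.35 CPM in control_SMPD1, MX1 had 2.17 and 4.16 CPM, and the list median was -0.21. NLRC5, an activator of antigen presentation genes, had 7.83 CPM in siGPR64 and 2.40 CPM in control_GPR64, but 18.1 CPM in siSMPD1 and 13.3 CPM in control_SMPD1. The list median was 0.38 in siGPR64 over control_GPR64, where the intervals of PSMB10, PSME1 and PSME2 all spanned equality. In siSMPD1 over its control the interval of PSME1 lay below equality and those of PSMB10 and PSME2 spanned it. Between the controls the list median was -0.54 (control_GPR64 over control_SMPD1), beside lower PSMB10, PSME1 and PSME2 in control_GPR64. The part of one in the other was not tested.

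Other multi-subunit complexes give a scale for the small shift in siSMPD1. The COP9 signalosome, whose subunits resemble those of the proteasome lid, had a median log2 ratio of -0.03 over 9 genes, with COPS7A at 35.2 CPM in siSMPD1 and 68.3 CPM in control_SMPD1. The translation factor eIF3 had a median of -0.18 over 12 measured of 13 genes, with 11 intervals below equality. The CCT chaperonin had a median of -0.22 over 8 genes, with all 8 intervals below. Over all genes 28.8% of intervals lay below, and 35.6% over genes at the levels of proteasome members. The proteasome median of -0.15 in siSMPD1 thus lay between those of COP9 and eIF3. In siGPR64 the medians were -0.10 for COP9, 0.05 for eIF3 and 0.07 for CCT, against 0.14 for the proteasome.

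**Figure D5:**
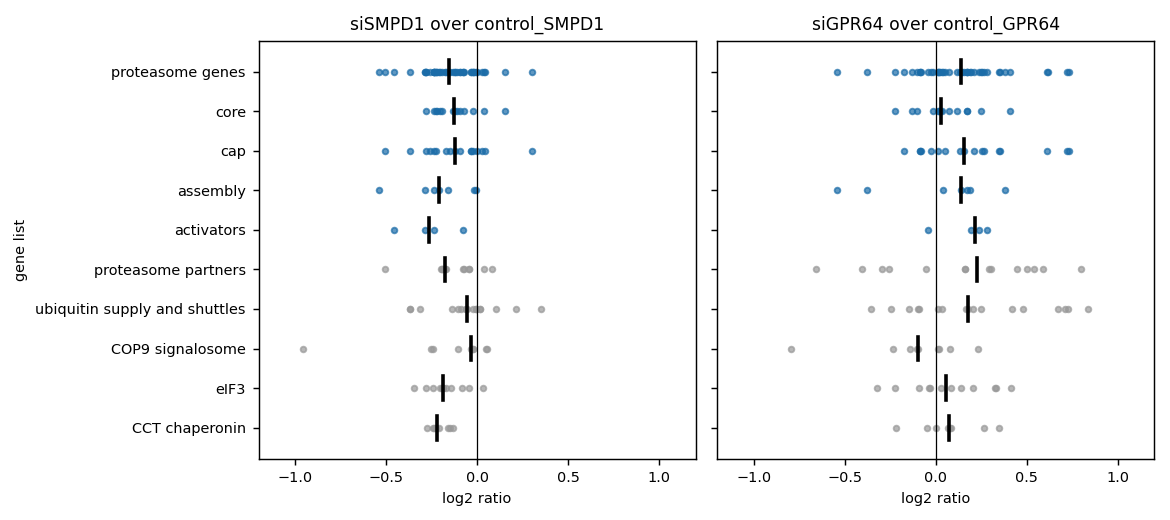
Log2 ratios of the members of the proteasome classes and of the comparison lists in siSMPD1 over control_SMPD1 and in siGPR64 over control_GPR64, 1 point per measured gene with the median of each list marked. In siSMPD1 the medians of core (-0.13), cap (-0.12), eIF3 (-0.18) and CCT (-0.22) lie close together below 0.

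As an alternative with a test, both controls were treated as replicates of 1 group, which leaves 1 residual degree of freedom. With edgeR's quasi-likelihood test and Benjamini-Hochberg adjustment over 12886 genes, 0 members had an adjusted p under 0.05 in either knockdown, and 0 genes in all. At an unadjusted p under 0.05 there were 0 members and 151 genes for siSMPD1, and 0 members and 290 genes for siGPR64. DESeq2 gave 0 members in both, with 1 of 12886 genes (0.00776%) for siSMPD1 and 0 for siGPR64. The lowest unadjusted p of a member was 0.153 with edgeR and 0.211 with DESeq2 for siSMPD1, and 0.281 and 0.326 for siGPR64. No shift of a single proteasome gene thus passed a test against the spread between the controls, which rests on 2 libraries.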

How the data were processed

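A673 libraries (1 per group) were made with a KAPA RNA HyperPrep kit with RiboErase and read from both ends, per the labels' protocols. Tools named in the submitters' processing notes are bcl2fastq, TopHat2, SAMtools and HTSeq, with the build hg19. No source used here gives the annotation, strand setting or counting mode. The deposited files hold raw counts per gene symbol, with no normalization by the authors. Their 5 HTSeq summary lines, 36.5% to 44.8% of entries, were left out.

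Counts were scaled with TMM in edgeR 4.0.16 (R 4.3.3) over genes of at least 1 CPM in at least 1 library. Log2 ratios used a prior of 0.5 count. Intervals are exact Clopper-Pearson 95% intervals of the share of reads (SciPy 1.17.1) and cover counting error only. Without molecular identifiers, reads may share a source molecule. The floor of 3 counts was 0.156 to 1.18 CPM. Measured genes had a mean of at least 1 CPM over the 2 libraries compared. A ratio of 2-fold or 1.5-fold was called where its interval excluded equality. Genes of like level lie within the 5 to 95 percentile of member levels.

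Lengths and 50-base words came from GENCODE 29 transcripts and promoters from RefSeq (GRCh38.p14). The rule was tested on counts simulated with counting error alone, which cannot show how it fares with variation between cultures. Members and lists were chosen with earlier results of these data known. Members given in every library were those past 1.5-fold, the catalytic subunits, PSMB10, chaperones, activators, PSMF1 and the extremes of each class, with others added after their values were seen. Alternatives included DESeq2 1.42.0. Some listed genes outside the members are not reported here.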

Additional observations from a re-analysis of the deposited data

Results flagged for a closer look

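In 10 members the counting intervals of the knockdown pairs lay on opposite sides of equality, below it in siSMPD1 over control_SMPD1 and above it in siGPR64 over control_GPR64. With 1 library per group the difference between the pairs was not tested. The log2 ratio in siSMPD1 minus that in siGPR64 was -0.84 for the lid subunit PSMD13, -0.74 for the nuclear activator PSME3, -0.72 for the ATPase PSMC4 and -0.62 for the lid subunit PSMD12. For the alpha ring it was -0.64 for PSMA1, -0.47 for PSMA2, -0.27 for PSMA3 and -0.38 for PSMA5. It was -0.44 for the ATPase PSMC3 and -0.47 for the activator PSME4. Each pair has its own control. The controls differed by a log2 ratio of -0.95 in PSMA1 and -0.88 in PSMD13 (control_GPR64 over control_SMPD1), and by 0.06 in PSMC4 and 0.02 in PSMD12.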

How the results depend on the processing

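In siSMPD1 the median log2 ratio of the members (main -0.15) was -0.12 with gene-count totals as scaling and -0.14 with both controls as 1 group in edgeR. It was -0.17 without the 5 members that share at least 10% of their 50-base words with pseudogenes (chosen after seeing the data). Gene-count totals put 10 members above 0 (main 5). DESeq2 size factors left 1 interval above equality (main 2). Against control_GPR64, 16 members were above 0, 11 intervals lay above equality and 1 member, PSMG4, was past 2-fold. In siGPR64 the median (main 0.14) was 0.10 with both controls as 1 group, in edgeR and in DESeq2. The 1.5-fold rule called 2 members (main 0). Against control_SMPD1, 10 intervals lay below equality (main 4) and 1 member, PSMC1, was past 2-fold, on 9 counts in siGPR64. PSMD13 in siGPR64 reversed to -0.16 against control_SMPD1 (main 0.72). Between the controls the median was 0.10 with gene-count totals (main 0.05), and the 1.5-fold rule called 6 members (main 1). The causes were not tested. Of 44 members, 29 in siSMPD1 and 26 in siGPR64 kept their direction against the other control. With DESeq2 size factors 44 and 43 did, and with gene-count totals 39 and 44.

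The labels give no replicate numbers, so the paired analysis rests on the titles, which put each knockdown beside a control. With that pair as a term, which leaves 1 residual degree of freedom, edgeR called 0 members and 0 genes (781 genes at an unadjusted p under 0.05), and the median of the members was -0.03. Depth limits the GPR64 pair, where 27 of 44 intervals spanned equality.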
